A study of Drosophila melanogaster with 2 samples.

Results

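Charlatan (chn) is a zinc finger transcription factor of Drosophila melanogaster, and 582 of its 4537 thresholded ChIP-seq peaks in embryos were distal intronic peaks in long genes, which are described here. A peak was taken when its summit lay more than 1000 bp from any protein-coding transcription start (TSS), inside a protein-coding gene and in no exon, and when the longest protein-coding gene covering it, called its host, spanned 30 kb or more. These peaks made up 12.8% of the thresholded set (exact 95% binomial interval 11.9% to 13.8%). Within the thresholded set, the choice used position only and not the strength of a peak. The rest of the thresholded set included 490 distal intronic summits in shorter genes, 530 distal intergenic summits and 2345 summits within 500 bp of a TSS, called promoter summits. The background was the 4816 weaker summits of the same location class in long genes, from the pooled relaxed list of 30000 summits, that overlapped no thresholded peak. The thresholded set was the strongest 4537 of that list, so each comparison with the background sets stronger peaks against weaker ones.

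The study had 1 group, of 2 biological replicates. Whole embryos of both sexes, collected over 0 to 24 h, came from a transgenic fly line that makes chn fused to a green fluorescent protein tag. The fusion was precipitated with an antibody to the tag from chromatin sonicated to 200 to 800 bp. Whole embryos of this age range mix all cell types and stages, so a peak cannot be placed in a cell type, and the line carries a tagged transgene. No condition was compared, so each comparison below is between sets of peaks, and its p-value does not measure the spread between embryos. Peaks of 1 gene share their locus and are not independent of each other. Intervals cover counting error only.

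Charlatan binds DNA through C2H2 zinc fingers and is needed for the development of sensory organs and the nervous system in the fly, where it acts on proneural genes. Long introns of developmental genes often hold enhancers, stretches of DNA that direct where and when a gene is transcribed. A ChIP-seq peak marks where chromatin was recovered with the factor, either from direct contact with DNA or through other proteins.

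The sequences around the strongest of these summits are shown first, because the strength of the peaks and the short words in their DNA are what the comparisons below turn on. Each is the plus strand of the dm6 (Release 6) genome, as the RefSeq assembly gives it, for 100 bases on either side of the summit, 5′ to 3′. Capitals mark the leading word CAGTGTA, the GAGA motif GAGAGAG, the word ACAGTGG and the word CACAGTG, on either strand and with overlaps merged. The strongest 5 peaks outside the right arm of chromosome 2 were in introns of ush (chr2L:480996-481196), Tlk (chrX:3742136-3742336), Raf (chrX:2297618-2297818), NFAT (chrX:13640402-13640602) and CG33158 (chr3L:16480461-16480661). The Tlk window was also the strongest with GAGAGAG, and the NFAT window the strongest with ACAGTGG and with CACAGTG. The ush and Raf windows held none of these 4 words.
ush: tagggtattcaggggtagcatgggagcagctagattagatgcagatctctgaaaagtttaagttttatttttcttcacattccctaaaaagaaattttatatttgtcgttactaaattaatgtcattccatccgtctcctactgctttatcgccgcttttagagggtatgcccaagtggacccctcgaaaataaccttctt
Tlk: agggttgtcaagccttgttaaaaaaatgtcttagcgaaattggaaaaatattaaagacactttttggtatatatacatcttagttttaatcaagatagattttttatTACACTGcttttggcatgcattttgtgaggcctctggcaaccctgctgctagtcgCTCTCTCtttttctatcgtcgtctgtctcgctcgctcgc
Raf: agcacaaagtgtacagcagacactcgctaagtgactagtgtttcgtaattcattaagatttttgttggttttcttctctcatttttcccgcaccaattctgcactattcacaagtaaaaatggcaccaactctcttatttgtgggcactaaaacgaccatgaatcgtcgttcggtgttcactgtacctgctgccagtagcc
NFAT: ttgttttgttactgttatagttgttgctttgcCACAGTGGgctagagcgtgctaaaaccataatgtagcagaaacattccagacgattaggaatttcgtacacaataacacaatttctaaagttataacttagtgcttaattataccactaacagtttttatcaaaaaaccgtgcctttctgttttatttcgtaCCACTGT
CG33158: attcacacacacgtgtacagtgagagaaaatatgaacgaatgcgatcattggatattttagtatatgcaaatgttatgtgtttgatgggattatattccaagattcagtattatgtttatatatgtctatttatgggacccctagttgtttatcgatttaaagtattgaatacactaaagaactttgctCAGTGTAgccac

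A second set is shown for an arrangement of CAGTGTA described further on, with a copy on each side of the summit, each reading away from it. These are the 3 strongest such windows outside the right arm of chromosome 2 that hold both copies, in introns of hiw (chrX:15022308-15022508), Rbfox1 (chr3L:10554633-10554833) and Eip75B (chr3L:18009080-18009280). The left copy appears as TACACTG, which is CAGTGTA on the minus strand. They were chosen after the arrangement had been seen.
hiw: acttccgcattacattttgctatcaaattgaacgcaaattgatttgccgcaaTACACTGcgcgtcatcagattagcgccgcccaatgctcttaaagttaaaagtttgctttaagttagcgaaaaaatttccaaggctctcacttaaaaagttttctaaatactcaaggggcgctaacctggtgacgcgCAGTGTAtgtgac
Rbfox1: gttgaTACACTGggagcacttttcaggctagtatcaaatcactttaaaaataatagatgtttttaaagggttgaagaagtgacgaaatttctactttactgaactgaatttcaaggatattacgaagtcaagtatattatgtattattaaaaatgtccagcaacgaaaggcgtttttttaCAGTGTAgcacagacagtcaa
Eip75B: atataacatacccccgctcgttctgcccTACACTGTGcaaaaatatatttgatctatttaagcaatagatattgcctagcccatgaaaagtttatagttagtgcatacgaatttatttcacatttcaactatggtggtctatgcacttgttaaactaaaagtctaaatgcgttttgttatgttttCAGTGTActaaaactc

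The peak in ush was far stronger than any other of the 582. U-shaped is a zinc finger cofactor that binds GATA factors and restrains their activity in bristle development. Its deposited signal value, the strength the authors' peak caller gave to the peak, was 1865 in the pooled list, 1103 in replicate 1 and 758 in replicate 2. It ranked 2 of all 4537 thresholded peaks, 1 in replicate 1 and 2 in replicate 2. The summit lay in intron 1 of the 7 introns of the longest ush transcript, and the nearest TSS, 1408 bp away, was that of cbt, which codes for another zinc finger factor.

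The next strongest peak was in Tlk. Tlk codes for Tousled-like kinase, which acts in chromatin assembly, and its peak had a pooled signal of 823, with 521 in replicate 1 and 304 in replicate 2. Raf, the kinase that relays Ras signals to the MAP kinase cascade, had 611, with 365 in replicate 1 and 247 in replicate 2. NFAT, a Rel-type transcription factor, had 601, with 329 in replicate 1 and 271 in replicate 2. Both replicates ranked these 3 peaks high, at 21, 62 and 74 in replicate 1 and 47, 66 and 57 in replicate 2, in the order named. Hr3, a nuclear receptor of the ecdysone response, had 522, with 292 in replicate 1 and 235 in replicate 2. The summit hosted by CG33158 had 469, and its nearest TSS, 3089 bp away, was that of aos, which codes for Argos, a secreted inhibitor of the EGF receptor. That summit also lay within aos, the shorter of both genes covering it.

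The remaining 6 of the 12 strongest peaks had pooled signals between 389 and 465. They lay in cno, which codes for an adherens junction protein (465), in CG32264 (460), in the ecdysone-response nuclear receptor gene Hr4 (431), in beat-Ib of the beaten path family of immunoglobulin proteins (396), in kirre (396) and in for, the cyclic GMP-dependent protein kinase gene foraging (389). Kirre is an immunoglobulin cell adhesion protein of myoblast fusion. All 12 were among the strongest 4537 summits of each replicate. Signals fell off steeply below them, with a median of 106 over the 582 peaks, quartiles of 85.3 and 154, and a lowest value of 71.4 in Ten-a. The strongest background summit, in cno, also had 71.4, since the thresholded set was the strongest 4537 of the pooled list.

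The replicates ranked these peaks alike in part. The thresholded set was labelled as filtered by IDR, a measure of how well peak ranks agree between replicates. Some agreement between the same replicates was therefore fixed in advance, and the values here are not independent support for it. Of the 582 summits, 574 had a summit within 100 bp in the replicate 1 list, 568 in the replicate 2 list and 560 in both. Among the strongest 4537 summits of each replicate, 405 of the 582 (69.6%) were found in both, 99 in replicate 1 only, 71 in replicate 2 only and 7 in neither. Over the 560 with a match in both lists, the signals had a Spearman correlation of 0.67 and a Pearson correlation of 0.75 on the log2 scale, given as a description over peaks that come from the same 2 samples. The same share was 70.4% for distal intronic summits in shorter genes, 71.3% for intergenic summits and 73.8% for promoter summits. None of the 3 differences passed Fisher's exact test (two-sided, adjusted over the 3 classes). In that order, the odds ratios by Fisher's exact test were 0.962 (95% interval 0.740 to 1.25, adjusted p = 0.789), 0.920 (0.711 to 1.19, adjusted p = 0.789) and 0.811 (0.664 to 0.989, adjusted p = 0.126). With summits matched within 50 bp, the share was 56.0% against 62.2% for promoter summits and that difference passed (odds ratio 0.775, adjusted p = 0.0205, Fisher's exact test). Among the 1000 strongest peaks the shares were 66.3% and 80.9% for promoter summits, and that difference passed too (odds ratio 0.464, adjusted p = 0.0071, Fisher's exact test).

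**Figure D1:**
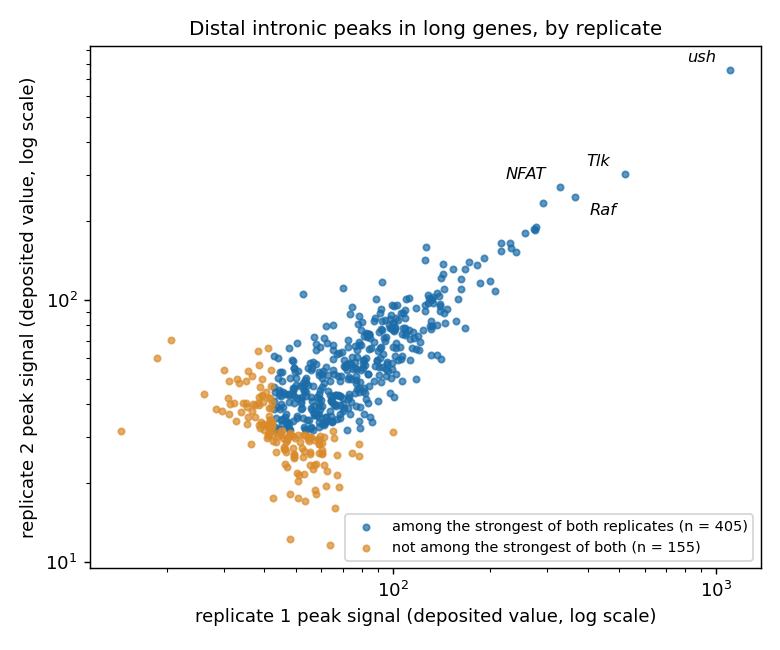
Signal of the distal intronic peaks of long genes in replicate 1 (horizontal axis, deposited value, log scale) and replicate 2 (vertical axis, deposited value, log scale), 1 point per peak for the 560 peaks matched in both lists. Blue points are the 405 among the strongest 4537 summits of both replicates and orange points the other 155; the ush peak stands apart from the rest at 1103 and 758.

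Within the thresholded set, distal intronic peaks in long genes were weaker than promoter peaks, and no difference from the other distal classes passed the test. Their median signal of 106 stood against 117 for promoter summits, a ratio of 0.908 (two-sided permutation test on the ratio of medians, adjusted p = 0.00579). It stood against 112 for distal intronic summits in shorter genes (ratio 0.952, adjusted p = 0.253, permutation test) and 105 for intergenic summits (ratio 1.01, adjusted p = 0.920, permutation test). The promoter difference was also found in each replicate's own list, with ratios of 0.877 in replicate 2 and 0.922 in replicate 1. Among the 1000 strongest peaks it was no longer past the threshold (ratio 0.929, adjusted p = 0.299, permutation test). Of the 582, 92 (15.8%) were among the 1000 strongest of the set, as were 18.4% of distal intronic summits in shorter genes, 16.8% of intergenic summits, 25.6% of promoter summits and 22.0% of all thresholded summits.

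The summits lay a median of 5596 bp from the nearest TSS, with a range of 1007 to 76874 bp. The farthest was in hth, and 171 summits (29.4%) were over 10000 bp away, against 37.8% of background summits. For 441 of the 582 the nearest TSS was that of the host itself. Cut into 3 equal parts along the direction of transcription, the host held 275 summits in its first part, 194 in the middle and 113 in its last. The share in the first part was 47.3%, against 39.9% of background summits. The first intron of the longest transcript held 190 of 578 summits that fell in an intron of it (32.9%), against 31.0% of background summits (odds ratio 1.09, 95% interval 0.908 to 1.31, p = 0.367, Fisher's exact test). In the list of replicate 2 alone these shares were 34.2% and 28.1%, and the difference passed (odds ratio 1.33, p = 0.00227, Fisher's exact test).

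Other thresholded summits lay near many of these peaks. Another thresholded summit of any class lay within 5000 bp of 288 of the 582 (49.5%), against 69.2% of distal intronic summits in shorter genes (odds ratio 0.437, 95% interval 0.340 to 0.562, adjusted p = 1.19e-10, Fisher's exact test). Summits of that class were closer to a TSS, at a median of 2542 bp, and promoter summits counted as neighbours. The part of that distance in the difference was not tested. Among the 1000 strongest peaks the shares were 20.7% and 24.4%, and the difference did not pass (odds ratio 0.808, adjusted p = 0.597, Fisher's exact test). Against intergenic summits, at 45.5%, the difference did not pass (odds ratio 1.17, 95% interval 0.928 to 1.49, adjusted p = 0.186, Fisher's exact test).

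The X chromosome held 149 of the 582 peaks (25.6%), against 19.2% of background summits (odds ratio 1.45, 95% interval 1.18 to 1.77, p = 0.000428, Fisher's exact test). Several of the genes with most peaks were X-linked, among them kirre, Raf, Hr4 and CG1677. With 1 summit per host gene in both sets, a choice added after seeing the data, the shares were 23.0% and 20.04% and the difference no longer passed (odds ratio 1.19, 95% interval 0.833 to 1.71, p = 0.349, Fisher's exact test). Counted by gene, 57 of 125 long genes on X (45.6%) held a peak, against 191 of 538 on the other arms (35.5%).

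The 582 peaks were spread over 248 of the 663 protein-coding genes of 30 kb or more, or 37.4% of them. Single peaks were found in 108 genes, pairs in 55, and 3 or more in 85. The 24 genes with 5 or more held 158 of the peaks. The share of genes with a peak was 32.0% at spans of 30 to 50 kb, 43.8% at 50 to 100 kb and 43.4% at 100 kb or more. Per 100 kb of gene there were 1.63, 1.57 and 0.776 peaks in these 3 ranges. Length alone did not order the genes: 8 of the 20 longest held a peak, and the 4 longest, Myo81F, Pzl, lovit and CG17684, held none. These 4 also held few background summits, with 1, 1, 0 and 0 in the order named, against 68 in kirre. Each peak was counted in 1 host only. CG15465, among the 20 longest, covers the same positions as rg and was counted as holding none, while rg held 2. Over the 663 genes, the number of peaks had a Spearman correlation of 0.15 with span and of 0.62 with the number of background summits, given as a description.

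The 8 genes that held most peaks had between 7 and 11 each. Kirre, spanning 394 kb, held 11, with pooled signals from 72.8 to 396 and a median of 118. Sbb, the corepressor brakeless, also held 11, with signals from 77.9 to 206 within 46.7 kb. Raf held 9, with a median signal of 190, the highest of these 8 genes, and 8 of the 9 were among the strongest of both replicates. Hth codes for homothorax, a homeodomain cofactor of Hox proteins, and held 9 with signals from 75.3 to 150. Hr4 held 8 with signals from 74.0 to 431. Pnt codes for the ETS factor of EGF receptor signalling and held 8 with signals from 73.0 to 244. CG1677 held 8, from 75.5 to 239, and ush held 7, from 73.5 to 1865. Apt and rdx tied with ush at 7 peaks.

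**Figure D2:**
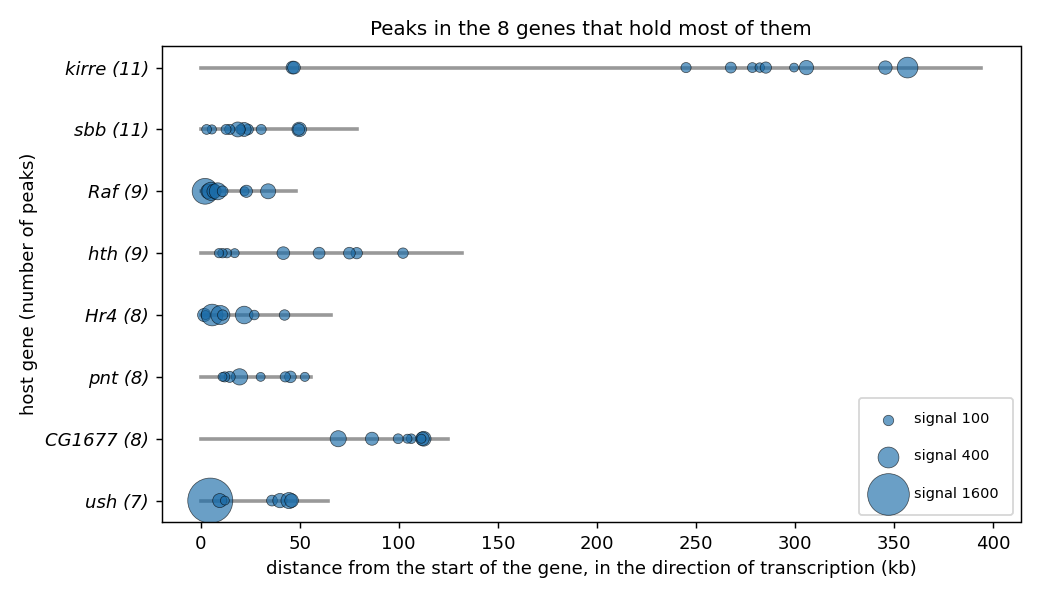
Peaks along the 8 genes that hold most of them, with distance from the start of each gene in kb on the horizontal axis, 1 grey line per gene and 1 circle per peak, its area in proportion to the pooled signal. The number of peaks stands beside each name; the peaks of kirre form a small cluster near its start and a wider one towards its end, and the largest circle is the ush peak of 1865.

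Long genes differed widely in how often they held a peak when grouped by function. The groups are described by counts beside the 37.4% of all long genes, with no test. All 6 long genes of the list of chromatin regulators and corepressors held one, with 17 peaks in all. The strongest were in tara, a trithorax-group gene (278 pooled signal, 153 in replicate 1 and 131 in replicate 2), in Smr, the SMRTER corepressor of nuclear receptors (277, with 126 and 159 in the same order), and in osa, a subunit of a SWI/SNF chromatin remodelling complex (176, with 92.3 and 83.1). In the strongest 4537 summits of either replicate alone, 6 of these 6 genes again held a distal intronic summit.

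Signalling genes followed, with 14 of 16 long genes (87.5%) and 41 peaks. Frizzled (fz), a Wnt receptor, had the strongest at 379, with 216 in replicate 1 and 166 in replicate 2, and its summit lay 25287 bp from the nearest TSS. The receptor gene N (Notch) had a peak of 309, with 186 and 116, and mam, the Mastermind coactivator of Notch, one of 251, with 144 and 110. The 2 long signalling genes with none were bnl, an FGF ligand gene, and pan, which codes for the TCF factor of Wnt signalling. Of the steroid hormone response list, 10 of 13 long genes (76.9%) held 36 peaks, led by Hr3 at 522, Hr4 at 431 and Eip63E, an ecdysone-induced kinase gene, at 247. Without replicate 1 the count was 8 of 13 and without replicate 2 it was 11 of 13.

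RNA-binding proteins had 13 of 20 long genes with a peak (65%) and neural and neuroblast transcription factors 12 of 20 (60%). Per 100 kb of gene, the RNA-binding list held 0.995 peaks, fewer than the 1.32 over all long genes, and the neural list 2.02. The long RNA-binding genes had a median span of 90110.5 bp, against 48405 bp over all long genes. The strongest peaks of the RNA-binding list were in the splicing regulator gene Rbfox1 (228, with 129 in replicate 1 and 97.1 in replicate 2), in shep (201.2, with 137 and 61.6) and in heph, the polypyrimidine tract-binding protein gene (189, with 100.4 and 95.01). Those of the neural list were in grh, which codes for Grainyhead (225, with 145 and 81.3), in the zinc finger gene jing (197, with 99.5 and 95.9) and in the homeodomain gene Lim1 (171, with 87.2 and 83.5). Without replicate 1, the neural count was 9 of 20. The long genes of that list with no peak included br, chinmo, nub and pdm3.

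Segmentation and Hox genes had 4 of 8 long genes with a peak, muscle genes 7 of 15 (46.7%) and cytoskeleton and polarity genes 7 of 17 (41.2%). The leading peaks were in hth (150) and in the Hox gene Antp (150), with 1 in disco-r (110). In the muscle list they were in mew, an alpha integrin gene (196), in Dys, the dystrophin gene (188), and in how, an RNA-binding regulator of muscle and tendon (181). Peaks of the cytoskeleton list included those in Src64B, a Src kinase gene (234), and in scrib, a cell polarity gene (135). Hth is a member of the neural list too, and how of the RNA-binding list.

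The list of synapse and ion channel genes stood lowest, with 3 of 36 long genes (8.33%) and 6 peaks. They were in dnc, the cyclic AMP phosphodiesterase gene (177, with 98.7 in replicate 1 and 77.9 in replicate 2), in Ca-beta, a calcium channel subunit gene (153, with 106 and 48.9), and in Ca-alpha1T, a T-type calcium channel gene (75.1, with no matched summit in replicate 1 and 34.6 in replicate 2). The 33 long genes without one included the channel genes para, cac, slo, Sh and eag. Without replicate 1 the count was 4 and without replicate 2 it was 2. Axon guidance and cell adhesion genes had 14 of 43 (32.6%), close to the share of all long genes, with kirre at 396, Fas3 at 236 and DIP-alpha at 192 in front. Per 100 kb of gene, peaks numbered 6.60 in the chromatin list, 4.93 in signalling, 4.21 in steroid response and 3.41 in segmentation and Hox. They numbered 1.88 in the muscle list, 1.46 in cytoskeleton, 1.24 in axon guidance and 0.254 in synapse, against 1.32 over all long genes. The density of background summits also differed between these lists. Per 100 kb of gene there were 30.3 background summits in the chromatin list, 30.6 in the signalling list and 3.85 in the synapse list, against 10.9 over all long genes. The part of that background density in the counts was not tested.

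**Figure D3:**
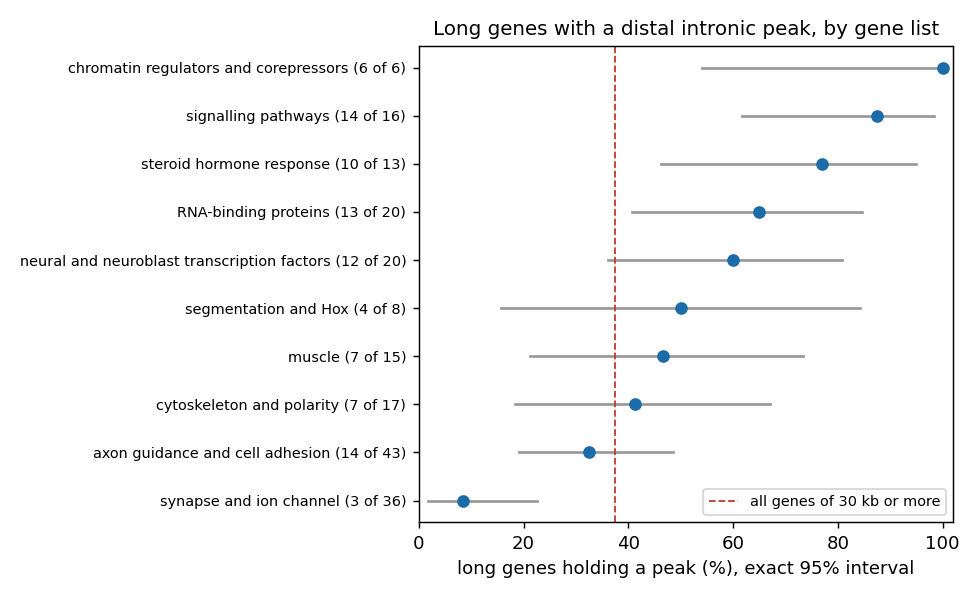
Share of long genes that hold a distal intronic peak (horizontal axis, percent) in each of 10 gene lists, with exact 95% binomial intervals as grey lines and counts beside the names. The dashed line is the 37.4% of all 663 long genes; the chromatin list is at 6 of 6 and the synapse and ion channel list at 3 of 36.

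The DNA of the peaks was poorer in G and C than that of the background. Windows of 100 bp on either side of the summit had a mean GC content of 37.4% ± 6.39 (SD, n = 581 windows), against 42.9% ± 7.69 in background windows (SD, n = 4771). The difference was -5.48 percentage points (two-sided permutation test, p = 1e-05, the smallest that 100000 resamples can give). GC content was 37.8% in windows of distal intronic summits in shorter genes, 38.1% in intergenic and 39.3% in promoter windows. Words below were therefore tested within bins of 2% GC unless stated, and their odds ratios come from those bins. Shares of windows are raw, so a pair of shares can differ from its odds ratio in size or direction.

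A small set of 7-base words was more frequent in the peaks than in the background, and it fell mostly into 2 families. Of 8192 words tested, each counted with its reverse complement, 21 (0.256%) passed as enriched (adjusted p below 0.05, odds ratio 1.5 or more). None (0%) passed as depleted, where 190 words were lower at an unadjusted p under 0.05 (stratified exact test) and 328 higher. Of the 21, 7 held the core CAGTG or its complement CACTG, which 48 of the 8192 words hold. Another 10 were of GA type, as were 172 of the 8192 words. Such words hold, on 1 strand, GAGAG or the run AGAGA or the word GAGCG or the word GCGAG. With 1 summit per host gene in both sets, 248 windows against 559, none passed as enriched, and 249 words had an unadjusted p under 0.05 (stratified exact test).

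CAGTGTA was the leading word. It was present in 85 of 581 windows (14.6%), against 204 of 4771 background windows (4.28%), with an odds ratio of 2.82 (95% interval 2.13 to 3.74, adjusted p = 4.94e-08, stratified exact test). The 85 windows lay in 74 genes, with at most 3 in any one. It was found in 7.44% of all thresholded windows. The odds ratio was 2.70 without replicate 1 and 2.50 without replicate 2. With 1 summit per host gene it was 1.51 (95% interval 0.925 to 2.48, adjusted p = 1, stratified exact test), at 14.5% of peak windows and 7.87% of background windows, the background then being the strongest weaker summit of each gene.

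Words of the same core followed. ACAGTGG had an odds ratio of 2.15 (1.58 to 2.93, adjusted p = 0.00397, stratified exact test) at 10.7% against 4.65%, and the other 5 core words after the leading one had odds ratios between 1.73 for CAGTGCA and 2.17 for CACTGTA. The NFAT window above held ACAGTGG and CACAGTG overlapping near its left end and the complement of ACAGTGG at its right end. ACTGAGA (2.13, at 10.8% against 4.25%) and AGTGCAC (2.11, at 10.7% against 4.13%) did not hold the core whole and overlapped words that did. The GA words were led by GAGAGAA at 11.5% against 4.402% (odds ratio 2.58, 1.91 to 3.49, adjusted p = 1.71e-05, stratified exact test). CGCTCTC had the highest odds ratio, 3.72, at 5.16% against 2.89%, and CTCGCTC had 3.35, CTCTCTC 2.67, AGAGAGC 2.56 and AGAGAGA 2.21. The end of the Tlk window showed this type of sequence, with CTCTCTC followed by repeats of CTCG.

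**Figure D4:**
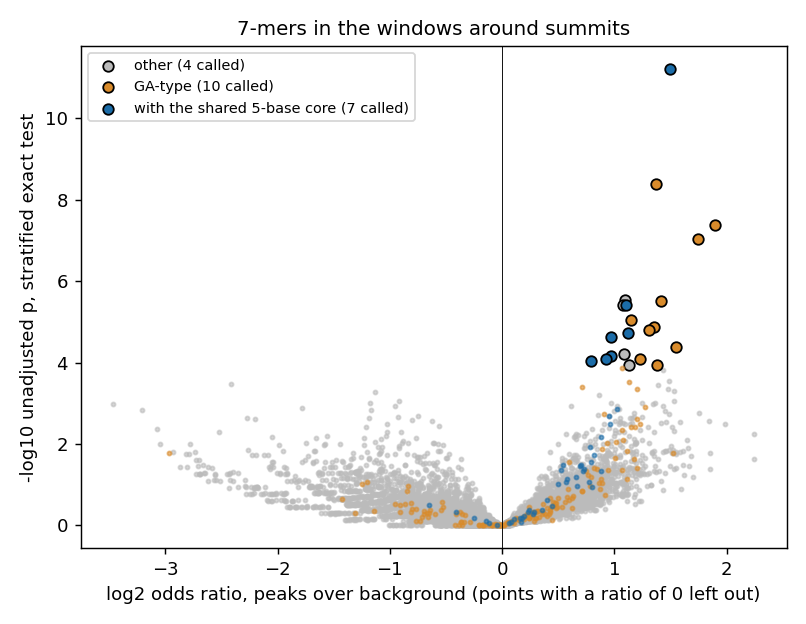
All 7-base words by their log2 odds ratio in peak windows over background windows (horizontal axis; positive is more frequent in peaks) and the −log10 of the unadjusted p of the stratified exact test (vertical axis), leaving out 98 words with no copy in peak windows. Large outlined points are the 21 that passed: 7 with the CAGTG core in blue, 10 of GA type in orange and 4 others in grey, all to the right of 0.

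Among 34 motifs of named factors and words known from earlier results of these data, 3 (8.82%) were more frequent in the peaks than in the background and none (0%) less frequent, where 3 were lower at an unadjusted p under 0.05 (stratified exact test). The count of more frequent motifs was 0 with 1 summit per host gene, 0 among the 1000 strongest peaks and 1 in windows of 50 bp on either side of the summit. In each of the settings with a count of 0, 1 motif was higher at an unadjusted p under 0.05 (stratified exact test). GAGAGAG, the motif of the GAGA factor Trl, was in 6.02% of peak windows, against 3.90% of background windows (odds ratio 2.67, 1.81 to 3.96, adjusted p = 6.59e-05, stratified exact test). It is the reverse complement of CTCTCTC above, so this is the same count again and not independent support. The others were ACAGTGG and CACAGTG (9.81% against 4.72%, odds ratio 1.96, 1.43 to 2.69, adjusted p = 0.000768, stratified exact test), which were listed because earlier results of these data had shown them and are not independent support. GAGAGAG was in 6.53% of all thresholded windows, ACAGTGG in 9.24% and CACAGTG in 8.31%. The E-box CAGCTG, bound by proneural bHLH factors, was in 8.26% against 9.12% as raw shares. Within GC bins its odds ratio was 1.29 (0.935 to 1.79, adjusted p = 0.491, stratified exact test). The E-box CACCTG had an odds ratio of 0.895 (0.596 to 1.34) and the Zelda motif CAGGTAG one of 1.27 (0.586 to 2.77), neither past the test. TATCGATA, the motif of DREF and BEAF-32, was in 0 of 581 peak windows, which allows a share of up to 0.516%, and in 11 of 4771 background windows (0.231%).

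Set against the other thresholded classes, these peaks differed from promoters in some motifs, and no difference from the other distal classes passed the test. No fixed motif was more (0%) or less (0%) frequent than in distal intronic peaks of shorter genes or in intergenic peaks, where 2 of 34 had an unadjusted p under 0.05 in each comparison (stratified exact test). Against promoters, none (0%) was more frequent, with 4 higher at an unadjusted p under 0.05 (stratified exact test), and 5 (14.7%) were less frequent. TATCGATA was in 0 of 581 windows against 8.93% of promoter windows (adjusted p = 8.15e-20, stratified exact test). The core promoter motif GGTCACAC was in 0.516% against 5.65% (odds ratio 0.0939), AGTGTTG in 3.96% against 12.04% (0.309), CAGCTG in 8.26% against 14.9% (0.561) and the ETS motif CCGGAA in 1.89% against 4.96% (0.381). Of these 5, AGTGTTG was listed because earlier results of these data had shown it, and it is not independent support.

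All 7-base words were also set against these classes, a comparison added after seeing the data. Against promoter windows 51 (0.623%) were enriched and 69 (0.842%) depleted, and 11 of the 21 words above were among the 51. The comparisons with background and with promoters used the same peak windows, so that overlap is not independent support. CAGTGTA was in 14.6% of peak windows, against 4.01% of promoter windows (odds ratio 3.74, 2.73 to 5.13, adjusted p = 3.21e-12, stratified exact test). Against distal intronic peaks of shorter genes, none of 8178 words passed in either direction, with 271 at an unadjusted p under 0.05 (stratified exact test), and CAGTGTA was in 14.6% against 8.85% (odds ratio 1.67, 1.12 to 2.47, adjusted p = 1, stratified exact test). Against intergenic peaks none of 8184 passed, with 304 at an unadjusted p under 0.05 (stratified exact test), and CAGTGTA was in 14.6% against 14.2% (odds ratio 1.04, 0.737 to 1.46).

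CAGTGTA had a preferred place and direction around the summits, which is described without a test because it was noticed in these data. Read along its own strand, it lay after the summit far more often than before it. Between 51 and 150 bp from the summit, 92 copies lay after it and 4 before it (95.8% after), against 132 and 66 in background windows (66.7%). The same share was 86.7% in distal intronic peaks of shorter genes, 92.9% in intergenic peaks and 73.9% in promoter peaks. The densest bin was 75 to 100 bp after the summit, with 7.23 copies per 100 peak windows against 0.692 per 100 background windows. Windows of 50 bp on either side leave out that bin, and in them the word was in 4.81% of peaks against 2.20% of the background (odds ratio 2.13, adjusted p = 0.382, stratified exact test).

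**Figure D5:**
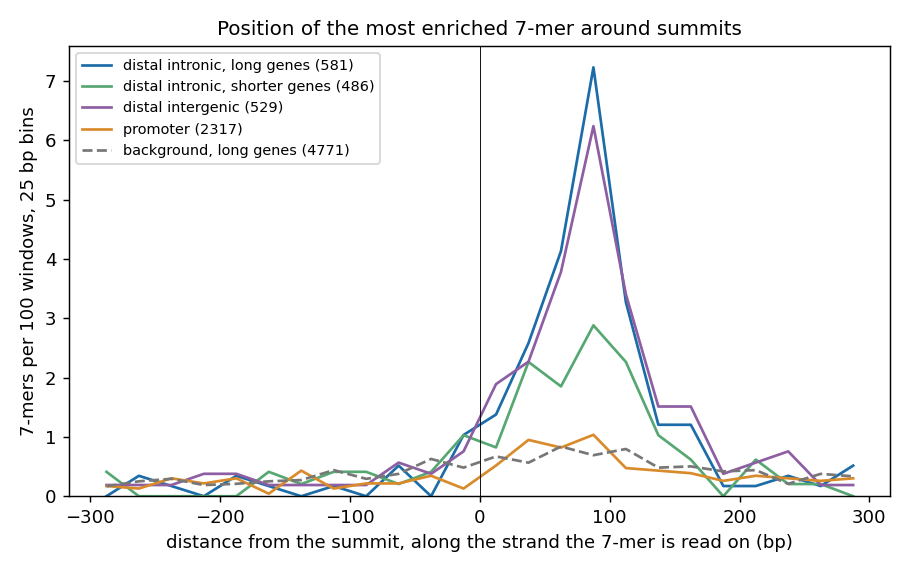
Copies of the most enriched 7-base word per 100 windows in 25 bp bins (vertical axis), by distance from the summit in bp along the strand on which the word is read (horizontal axis), for 5 sets of summits. Distal intronic peaks of long genes reach 7.23 per 100 at 75 to 100 bp after the summit and intergenic peaks follow closely, while the dashed background line stays below 1 throughout.

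The bases next to CAGTGTA were also alike between copies. Over the 94 copies in peak windows, the 3 bases at positions -7 to -5, counted back from the first base of the word, were T in 73.8% on average, against 65.4% over the 210 background copies. The same share was 71.1% in distal intronic peaks of shorter genes, 82.1% in intergenic peaks and 57.7% in promoter peaks. Over the 10 bases after the word, T made up 27.1% in peak windows and 28.3% in the background. At position -2 the base was C in 56.4% of peak copies and 48.1% of background copies. The right-hand copy in the Rbfox1 window above follows a run of T.

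In 13 of the 581 windows (2.24%), a copy of CAGTGTA within 200 bp lay on each side of the summit, both reading away from it, against 11 of 4771 background windows (0.231%). CAGTGTA was picked for being more frequent in these same peak windows. A higher share with a copy on each side was therefore in part fixed in advance. Whether the arrangement was more frequent than the number of copies alone would give was not tested. The copies were 157 bp apart in the median peak, with a range of 127 to 230 bp, and 160 bp apart in the median background window. The 13 peaks had pooled signals from 72.0 in esn to 267 in cno and were in 13 genes, which included the nuclear receptor genes Hr3 and Eip75B, the ubiquitin ligase gene hiw, Rbfox1, shep and the axon guidance gene Sema1a. The hiw peak, with the copies 136 bp apart, had a signal of 232, with 140 in replicate 1 and 91.1 in replicate 2. The Rbfox1 peak (175 bp apart) had 228, with 129 and 97.1, and the Eip75B peak (157 bp apart) 183, with 101.4 and 77.5. The arrangement was also found in 11 of 529 intergenic windows (2.08%), 5 of 486 in shorter genes (1.03%) and 4 of 2317 promoter windows (0.173%).

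The share of windows with CAGTGTA showed no order with the strength of the peaks. In the strongest 194 windows CAGTGTA was in 16.0% (exact 95% binomial interval 11.1% to 21.9%), in the middle 194 in 11.9% (7.67% to 17.3%) and in the weakest 193 in 16.1% (11.2% to 22.0%). GAGAGAG was in 5.15%, 4.64% and 8.29% of the same windows, with overlapping intervals. At least 1 of CAGTGTA and the 3 motifs that passed was in 190 of 581 peak windows (32.7%) and 684 of 4771 background windows (14.3%). These words were picked for being more frequent in the same peak windows, so a higher share there was fixed in advance. The 2 shares are a description without GC bins. Among the genes with most peaks, CAGTGTA was in 3 of 8 peaks of pnt and 2 of 11 of kirre, and in none of the 9 of Raf or the 8 of Hr4.

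Some peaks lay next to the limits of the selection. Sog, the gene of a BMP antagonist, has a span of 30152 bp and was just inside the length limit, with a peak of 138, and Pli, at 29891 bp and with a peak of 185, was just outside. A peak in the gene a, 1007 bp from a TSS and with a signal of 77.7, was just inside the distance limit, and another in Raf, 988 bp from a TSS and with 175, was just outside. The chn gene itself spans 29548 bp and so fell short of the length limit, but it held 10 distal intronic peaks with signals from 74.1 to 253, none with CAGTGTA.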

How the data were processed

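Chromatin immunoprecipitation and sequencing of 2 biological replicates gave the lists used, per the labels. Only the dm6 lists were used: the thresholded set, the pooled relaxed list and 1 relaxed list per replicate. Each gives a start, an end, a summit, a signal and a −log10 q-value per peak, as deposited by the authors. No source says that the deposited signal was scaled to depth, so it was used within a list. The deposited −log10 q was at its maximum for 479 of the 582 peaks and was not used further. Aligner and peak caller were not given in the sources used here, read depth is unknown, and the control was not analysed here.

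Summits were placed on the Ensembl 115 annotation (BDGP6.54), and sequences came from the RefSeq Release 6 genome. Python 3.11.15 with scipy 1.17.1 was used. Of overlapping windows in a set, the strongest was kept, which leaves 581 of 582 peaks and 4771 of 4816 background summits. Words were counted once per window on both strands and compared by an exact conditional test over GC bins, with Mantel-Haenszel odds ratios. P-values were adjusted by Benjamini-Hochberg over all words, all motifs, or all motifs and 3 classes. Odds ratios of Fisher's tests add 0.5 to each count. The tests were tried on simulated data.

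The members and lists were chosen with earlier results of these data known. Genes named are the hosts of the 12 strongest peaks, the 8 genes with most peaks, the 3 strongest hosts of each list, chn, and those next to the limits; others named were chosen after their values were seen. The result for 1 gene that this rule takes is not reported here. Of 522 list entries, 4 matched no gene symbol. Words named are the 10 of smallest p, others being named after their values were seen.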

Additional observations from a re-analysis of the deposited data

How the results depend on the processing

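No paired analysis was possible because there is only 1 group. The number of enriched words was 189 without GC bins, with 90 depleted, 5 in windows of 50 bp on either side (short windows), 9 beyond 2000 bp from a TSS, 2 in genes of 50 kb or more, 0 with 1 summit per host gene, 0 among the 1000 strongest peaks, and 8 to 22 with 1 replicate left out. Unadjusted p-values under 0.05 numbered 249 with 1 summit per gene and 271 among the 1000 strongest peaks (stratified exact test). These settings had 248 and 92 peak windows, against 581. In GC bins the poly-T run TTTTTTT had an odds ratio of 0.845, which did not pass (adjusted p = 0.491, stratified exact test). Without GC bins its odds ratio was on the other side of 1, at 1.33. Motifs more frequent than in the background numbered 1 in short windows and 0 in both settings with 0 words. In short windows, 1 motif was more frequent than in shorter genes and 2 were less frequent than at promoters. Among the 1000 strongest peaks, 1 was more and 0 were less frequent than at promoters. Against promoters in that set, replicate agreement passed (odds ratio 0.464, adjusted p = 0.0071, Fisher's exact test) and the signal ratio of 0.929 did not, and agreement also passed with a 50 bp match in the whole set (0.775). Among the 1000 strongest peaks, the odds ratio for a neighbour against shorter genes was 0.808 and did not pass, and 71 long genes held a peak. The first-intron odds ratio was 1.11 to 1.33 with 1 replicate left out, and the X odds ratio was 1.19 with 1 summit per gene. The cause was not tested. TATCGATA gave no odds ratio with 1 summit per gene, where no window of either set held it. The alternatives on X share per gene, list counts per replicate and words against other classes were added after seeing the data. Of the alternatives for main results, 74 kept their direction and side of the threshold or their count within 1.5 times, 16 counts moved further, 3 results came to pass the threshold and 3 no longer passed it.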
